A study of Mus musculus with 6 samples.

Results

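Kinesins are motor proteins that step along microtubules, most of them towards the fast-growing ends. Some carry vesicles, mitochondria and cytoskeletal parts down axons and into dendrites, some build and pull apart the spindle of dividing cells, and others work in cilia and centrioles. Neurons have left the cell cycle and depend on the transport motors. The mitotic motors are known mainly from cells that still divide, which in early postnatal spinal cord include glial and endothelial progenitors.

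The kinesin genes were taken as all genes named Kif or Kifc followed by a digit, without pseudogenes and opposite-strand transcripts, that were listed above 0 in at least 1 of 6 spinal cord libraries. This gave 41 genes of 25576 listed in all, and all 41 were above 0 in every library. They were placed by textbook function into 12 mitotic, 8 neuronal, 10 broad transport and 6 ciliary and centriolar kinesins, with 5 others. The name rule also takes in Kif1bp, which binds kinesins and is not itself a motor, and Kifc5b, a close relative of Kifc1 with which reads can be shared. The listed spans of 9 of the 41 (Kif20a, Kif18a, Kif18b, Kif4, Kif3c, Kif17, Kif2a, Kifc3 and Kif7) hold another coding gene, so some of their reads can belong to a neighbour.

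Whole spinal cord was taken at postnatal day 4 from SMA mice (mSmn-/-, hSMN22tg/0) and from control mice (mSmn+/-, hSMN22tg/0), all of strain FVB, with 3 libraries each. By genotype, SMA mice have no intact copy of mouse Smn and controls keep 1. Mice of both groups carry the human SMN2 transgene, which gives some SMN protein, so no group was free of the transgene or of an Smn mutation. Bulk-seq was described as triplicates with n = 1 per group, so p-values measure only the spread between these libraries, which may be technical. Levels are FPKM, the fragments of a gene scaled to its length and to the fragments mapped in the library, so that genes of a library can be compared with each other.

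Smn1, the targeted gene, was measured at 10.4, 8.64 and 11.9 FPKM across control replicates 1 to 3, against 8.48, 9.30 and 11.1 FPKM across SMA replicates 1 to 3. These ranges overlapped, so the level of Smn1 gave no check of the genotype labels, and every direction below rests on them. Depth in reads is unknown. From the most frequent ratio of low values, the depths relative to SMA replicate 1 were 1.16, 1.09 and 1.03 in control replicates 1 to 3 and 1.01 in both SMA replicates 2 and 3.

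The library labelled control replicate 2 stood apart. The 14 hepatocyte markers summed to 30368 FPKM in it and to between 49.4 and 108 FPKM in the other 5 libraries, and all 14 were highest there. Their most abundant gene, the albumin gene Alb, was at 15894 FPKM in control replicate 2 and at no more than 56.2 FPKM elsewhere, and Apoc3 was listed at 0 in control replicate 3 and SMA replicate 3. The 12 erythroblast markers summed to 364 FPKM in this library and to between 7.71 and 21.9 FPKM in the others, with the heme synthesis gene Alas2 as the most abundant over all 6 libraries together. The 9 neutrophil precursor markers, led by S100a8, summed to 427 FPKM there and to between 6.04 and 12.7 FPKM in the others. Elane was at 0 in control replicate 3 and SMA replicate 1, and Ctsg in control replicate 1 and SMA replicates 1 and 3. Of the 12 neuron markers 10 were lowest there, though not the most abundant, the noncoding RNA Meg3, and they had a sum of 2300.3 FPKM against 2992 to 3468 FPKM in the others. Comparisons of SMA with control are therefore given with and without this library for each class.

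The family spanned more than 3 orders of magnitude on the FPKM scale. Kif1a, a carrier of synaptic vesicle precursors, had the highest mean over the libraries (196 FPKM), followed by Kif1b (157 FPKM), Kif5c (111 FPKM) and Kif5a (89.8 FPKM), all axonal transport motors. The mitotic members lay far below, with means from 0.898 FPKM for Kif14 to 3.62 FPKM for Kif22. Among the neuronal members, Kif17 alone (2.24 FPKM) lay within that range, and Kif12, a kinesin known mainly from kidney, was the lowest of all at 0.155 FPKM. Neuronal kinesins made up 50.6% to 58.2% of the summed kinesin FPKM of a library, and mitotic kinesins 1.26% to 7.07%.

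**Figure D1:**
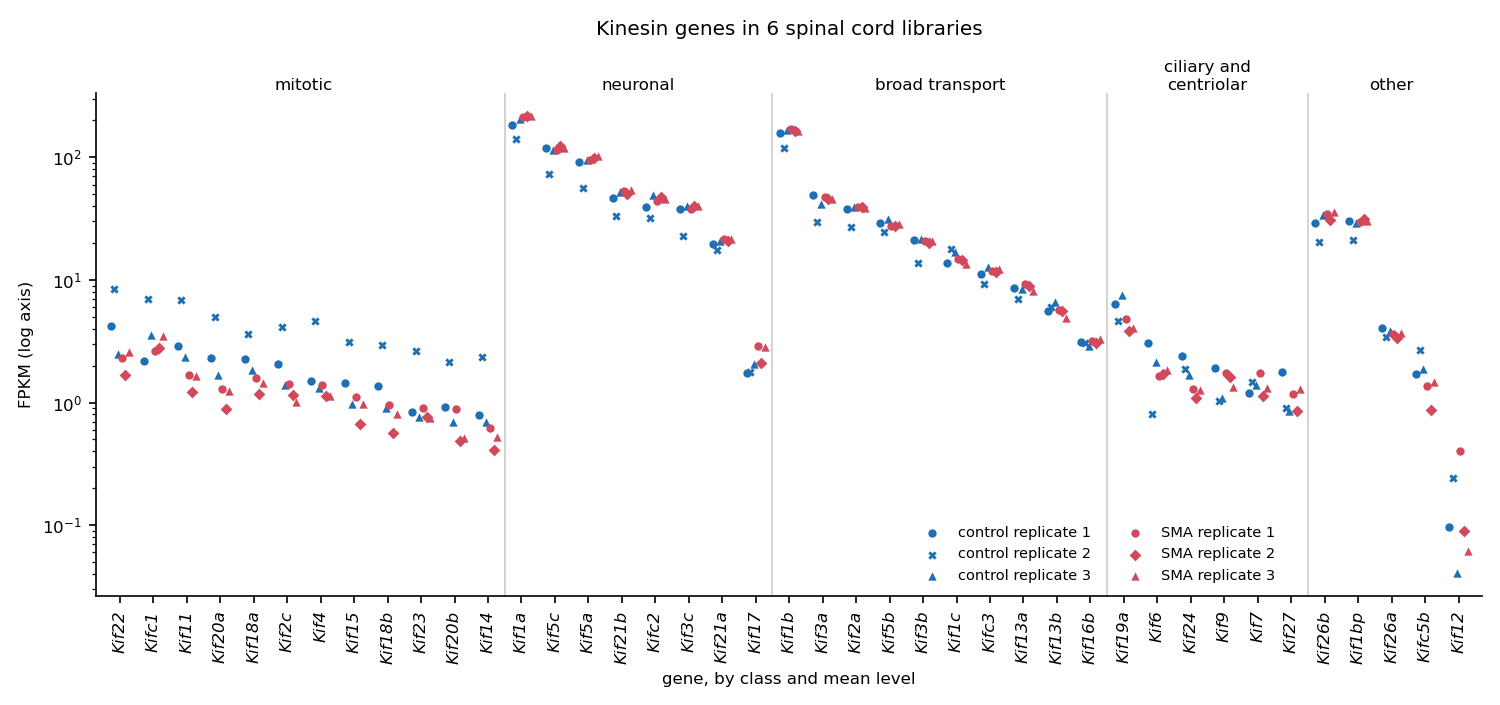
FPKM (log axis) of the 41 kinesin genes in each of the 6 libraries, ordered by class and mean level, with blue symbols for control and red for SMA. In control replicate 2 (crosses) all 12 mitotic kinesins are at their highest value and 7 of the 8 neuronal kinesins at their lowest.

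Mitotic and neuronal kinesins were also set apart in their promoters. Genes used in G2 and mitosis often carry the cell cycle genes homology region (CHR), with the letters TTTGAA or TTCGAA, and the NF-Y box with the letters CCAAT near their start. These letters were searched on both strands of the RefSeq promoters of build GRCm38.p6, each reaching from 250 bases before to 50 bases after the start. The table held 11 of the 12 mitotic kinesins with 1 promoter each and 5 of the 8 neuronal kinesins with 6 promoters. CHR letters stood in 10 of the 11 mitotic promoters (90.9%) and in 1 of the 6 neuronal ones (16.7%), against 19.2% of all 32851 promoters. CCAAT stood in 7 mitotic promoters (63.6%) and in 0 neuronal ones, against 37.4% of all promoters. Both stood together in 7 mitotic promoters (63.6%), against 7.52% of all. Within 50 bases of the start, a window chosen after the matches were seen, CHR letters stood in 8 of the 11 mitotic promoters (72.7%) and in 5.31% of all. Of the mitotic promoters, only that of Kif18a held none of these letters, and Kif2c, Kif15 and Kif20b held CHR letters without CCAAT. Elsewhere in the family, CHR letters stood in 0 of 9 promoters of broad transport kinesins and in 2 of 6 of ciliary and centriolar kinesins, those of Kif24 and Kif27. CCAAT stood in 4 of the 9 (44.4%) and in 3 of the 6 (50%), and both stood together in the same 2 of the 6 (33.3%), so CCAAT alone did not set the mitotic kinesins apart from these classes. The matches are a description of letters and say nothing of whether a factor binds.

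The promoters of 5 mitotic and 3 neuronal kinesins are shown because they carry this contrast between the classes. They are written 5′ to 3′ on the strand of the gene, in build GRCm38.p6, with the CHR and CCAAT letters of either strand in capitals, and the start site follows base 250. The mitotic ones are Kif11 on the plus strand (chr19:37376132-37376431) and, on the minus strand, Kif22 (chr7:127042371-127042670), Kif18b (chr11:102925075-102925374), Kif23 (chr9:61946750-61947049) and Kifc1 (chr17:33890584-33890883). The neuronal ones are Kif1a on the minus strand (chr1:93101825-93102124), Kif5c on the plus strand (chr2:49619036-49619335) and Kif21a on the minus strand (chr15:91049902-91050201).
Kif11: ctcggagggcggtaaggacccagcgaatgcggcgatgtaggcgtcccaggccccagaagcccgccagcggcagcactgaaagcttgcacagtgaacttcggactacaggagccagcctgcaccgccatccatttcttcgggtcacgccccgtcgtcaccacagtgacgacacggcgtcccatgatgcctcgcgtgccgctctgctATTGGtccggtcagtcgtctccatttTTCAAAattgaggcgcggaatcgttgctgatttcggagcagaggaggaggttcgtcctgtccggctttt
Kif22: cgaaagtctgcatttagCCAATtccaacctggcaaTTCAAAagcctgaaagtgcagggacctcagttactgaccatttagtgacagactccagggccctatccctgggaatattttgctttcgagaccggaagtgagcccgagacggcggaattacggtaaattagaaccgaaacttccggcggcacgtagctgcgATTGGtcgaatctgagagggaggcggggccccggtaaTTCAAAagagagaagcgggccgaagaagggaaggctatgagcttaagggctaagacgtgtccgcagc
Kif18b: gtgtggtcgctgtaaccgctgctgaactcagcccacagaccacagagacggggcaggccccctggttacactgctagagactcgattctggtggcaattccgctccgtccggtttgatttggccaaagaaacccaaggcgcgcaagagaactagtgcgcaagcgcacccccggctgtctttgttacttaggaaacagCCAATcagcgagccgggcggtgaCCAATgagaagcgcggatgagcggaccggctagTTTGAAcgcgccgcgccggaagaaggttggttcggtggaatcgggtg
Kif23: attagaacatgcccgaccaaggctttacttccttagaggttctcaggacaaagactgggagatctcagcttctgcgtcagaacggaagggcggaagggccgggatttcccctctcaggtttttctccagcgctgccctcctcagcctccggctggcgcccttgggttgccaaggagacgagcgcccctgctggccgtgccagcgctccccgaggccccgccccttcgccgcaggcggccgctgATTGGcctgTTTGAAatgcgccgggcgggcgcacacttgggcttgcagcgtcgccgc
Kifc1: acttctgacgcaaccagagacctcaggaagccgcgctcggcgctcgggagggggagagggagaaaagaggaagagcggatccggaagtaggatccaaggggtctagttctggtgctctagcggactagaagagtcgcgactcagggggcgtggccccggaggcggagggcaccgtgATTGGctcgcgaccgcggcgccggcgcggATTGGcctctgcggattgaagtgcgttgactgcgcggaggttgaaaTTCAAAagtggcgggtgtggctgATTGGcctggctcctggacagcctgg
Kif1a: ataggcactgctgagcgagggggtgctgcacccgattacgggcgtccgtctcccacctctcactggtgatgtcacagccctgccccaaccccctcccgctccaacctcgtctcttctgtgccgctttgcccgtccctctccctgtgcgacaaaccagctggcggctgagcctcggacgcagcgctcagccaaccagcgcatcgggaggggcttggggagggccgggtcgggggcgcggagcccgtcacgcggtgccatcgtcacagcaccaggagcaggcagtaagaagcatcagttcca
Kif5c: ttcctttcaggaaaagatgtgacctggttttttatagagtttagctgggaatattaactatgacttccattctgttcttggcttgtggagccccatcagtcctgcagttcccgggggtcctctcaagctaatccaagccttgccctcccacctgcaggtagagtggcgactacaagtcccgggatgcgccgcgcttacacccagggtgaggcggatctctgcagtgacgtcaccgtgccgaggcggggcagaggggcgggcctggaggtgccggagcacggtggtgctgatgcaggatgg
Kif21a: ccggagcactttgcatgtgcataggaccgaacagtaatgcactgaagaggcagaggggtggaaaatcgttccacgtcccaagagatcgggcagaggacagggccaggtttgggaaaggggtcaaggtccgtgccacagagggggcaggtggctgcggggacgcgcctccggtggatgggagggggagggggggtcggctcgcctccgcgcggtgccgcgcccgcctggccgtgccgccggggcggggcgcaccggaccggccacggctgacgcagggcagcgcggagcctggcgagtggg
In Kif11, the CHR letters began 19 bases before the start and the CCAAT letters 45 bases before it, and in Kif22 the nearer pair began 17 and 54 bases before it. The promoters of Kif1a, Kif5c and Kif21a shown here hold no capitals. A further promoter of Kif1a in the table, whose 300 bases begin at 93082431 and are not shown, held CHR letters 44 bases before its start.

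**Figure D2:**
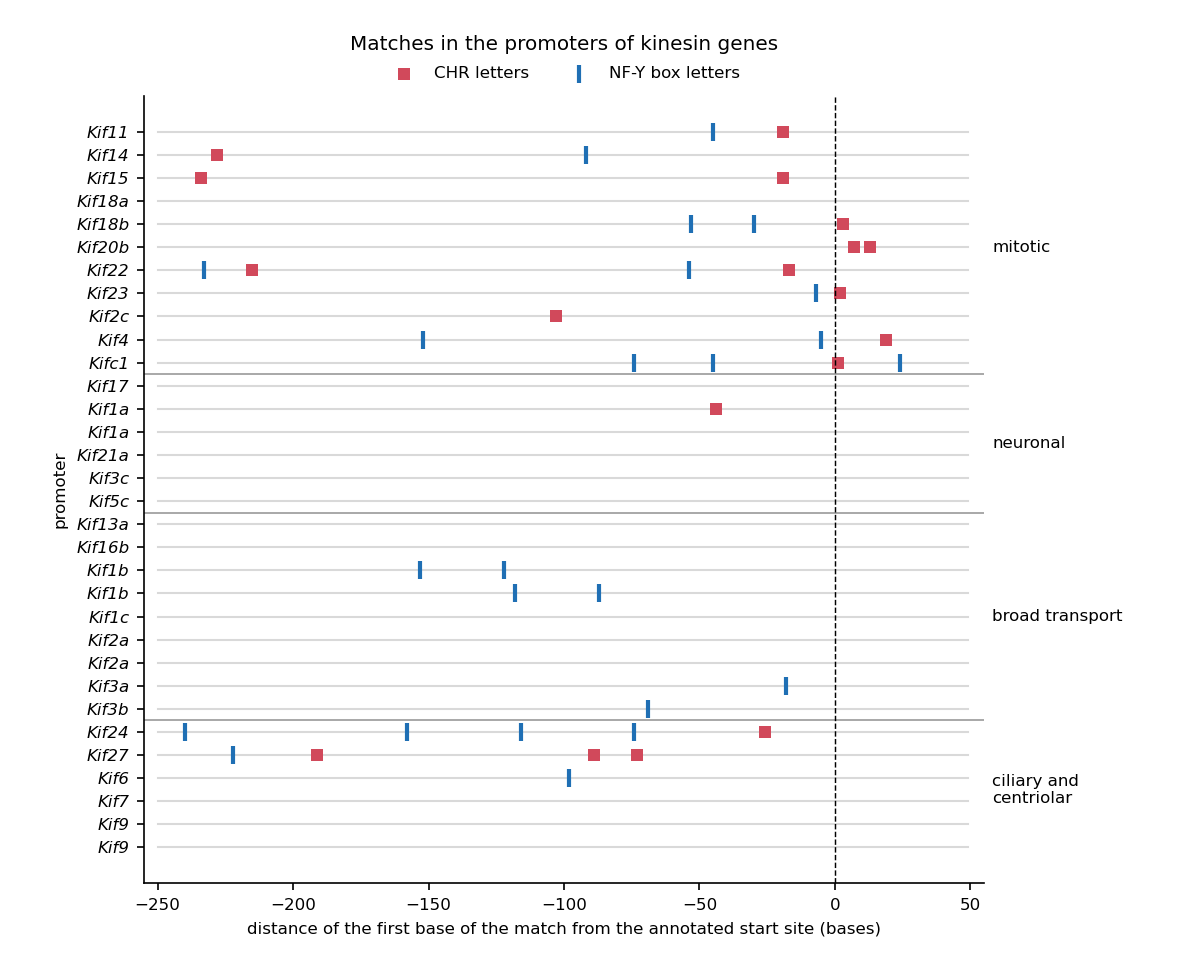
Matches of CHR letters (squares) and NF-Y box letters (bars) in each kinesin promoter searched, by distance in bases of the first base of the match from the annotated start site, for either strand. Of the 11 mitotic promoters, 8 have a square within 50 bases of the start, and of the 6 neuronal promoters 1 has a square.

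SMA was compared with control by limma, which fits each gene and steadies its variance with those of the others, on log2(FPKM + 1) and for genes averaging 0.5 FPKM or more. Fold changes on this scale understate the change of low genes, which the mitotic kinesins are. Of the 41 members, 40 were tested, all but Kif12. At an unadjusted p under 0.05, 6 kinesins were lower in SMA (Kif11, Kif20a, Kif18a, Kifc5b, Kif19a and Kif24), where 2.39% of all 17088 genes tested were, and 0 were higher, where 3.4% of all genes were. No kinesin passed an adjusted p of 0.05 (limma, smallest adjusted p = 0.683 in the family), nor did any other gene (0%). None had a fold over 2 at an unadjusted p under 0.05 either, the thresholds used for DEGs, where 0.17% of all genes had. This depends on the pseudocount of 1 and on single control libraries. With a pseudocount of 0.1, Kif11 (-1.21, unadjusted p = 0.0176), Kif20a (-1.18, unadjusted p = 0.0212) and Kif22 (-1.02, unadjusted p = 0.0456) passed both thresholds, where 1.11% of all genes did. The same 3 passed them without control replicate 3 (0.841% of all genes), and Kif11 without control replicate 1 (0.619% of all genes). With quantile normalization only Kif11, Kif20a and Kif18a of the 6 lower kinesins kept an unadjusted p under 0.05 (1.97% of all genes). The SMA libraries lay below all controls for 6 kinesins (6.67% of all genes) and above all controls for 4 (10.3% of all genes).

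Without control replicate 2, 5 kinesins were lower at an unadjusted p under 0.05 (Kif11, Kif20a, Kif19a, Kif24 and Kif6), against 5.2% of the 16574 genes then tested. None was higher, against 5.27% of all genes. Kif11, Kif20a, Kif19a and Kif24 were in both counts. The smallest adjusted p of a kinesin was 0.291 (limma, Kif19a), while 2 of all genes (0.0121%) passed 0.05, and none of the kinesins was among the 0.139% of genes past both DEG thresholds. The SMA libraries lay below both remaining controls for 11 kinesins (13.9% of all genes) and above them for 4 (14.2% of all genes). Leaving out any 1 SMA library from the 6 left 0 kinesins lower at an unadjusted p under 0.05, and the share of all genes fell as well, to 1.79%, 0.83% and 0.731% without SMA replicates 1, 2 and 3. The log2 fold changes of Kif11 stayed close in size, at -0.94, -0.81 and -0.94, as did those of Kif20a, at -0.87, -0.73 and -0.85. Leaving out control replicate 3 gave 8 lower kinesins, against 4.16% of all genes, and 3 higher, against 6.07% of all genes. Over all genes the main comparison had 409 lower and 581 higher at that p, and rescaling to the same total FPKM turned this to 386 lower and 338 higher, or, without control replicate 2, to 1462 lower and 521 higher.

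Mitotic kinesins were high in control replicate 2. Of the 12, 3 were lower in SMA at an unadjusted p under 0.05 (2.39% of all genes). In every SMA library 4 were below all controls (6.67% of all genes). Leaving out control replicate 2 gave 2 lower at that p (5.2% of all genes) and 4 below both remaining controls (13.9% of all genes). All 12 had a negative log2 fold change, with a median of -0.54 (range -0.90 to -0.30) against 0.04 over all genes tested, except that Kifc1 turned to 0.01 when libraries were weighted. All 12 were highest in control replicate 2, as were 24.7% of all genes tested. Without that library the median was -0.24 against 0.00 over all genes, with 10 members below 0 and Kif23 and Kifc1 at 0.00 and 0.06. A smaller number of dividing cells and less of these transcripts per dividing cell cannot be told apart in whole tissue.

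Kif11, the motor that slides spindle microtubules apart to keep the spindle bipolar, lies on chromosome 19 from 37376403 to 37421859. It was measured at 2.87, 6.81 and 2.34 FPKM across control replicates 1 to 3, against 1.67, 1.21 and 1.65 FPKM across SMA replicates 1 to 3. All 3 SMA libraries were below all 3 controls, by the widest margin below control replicate 2. Its log2 fold change was -0.90 (standard error 0.321, unadjusted p = 0.0279, adjusted p = 0.683 from limma), and -0.52 without control replicate 2 (standard error 0.156, unadjusted p = 0.0108, adjusted p = 0.366 from limma). The exact two-sided permutation test gave p = 0.1 with and without that library, the smallest that 3 libraries against 3 or against 2 allow.

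Kif20a, which carries Aurora B to the midzone of the anaphase spindle, was measured at 2.31, 4.99 and 1.67 FPKM across control replicates 1 to 3, against 1.30, 0.888 and 1.25 FPKM across SMA replicates 1 to 3. Kif18a, which damps the movements of chromosomes at the spindle equator, was at 2.27, 3.64 and 1.84 FPKM in controls and at 1.59, 1.18 and 1.44 FPKM in SMA. In both genes every SMA library was below every control, and SMA replicate 2 was the lowest library. The log2 fold change of Kif20a was -0.81 (unadjusted p = 0.0325, adjusted p = 0.683 from limma) and -0.48 without control replicate 2 (unadjusted p = 0.0233, adjusted p = 0.422 from limma). That of Kif18a was -0.55 (unadjusted p = 0.0356, adjusted p = 0.683 from limma) and -0.35 without control replicate 2 (unadjusted p = 0.0537, adjusted p = 0.487 from limma).

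Kif22 and Kif4 are chromokinesins, motors that bind chromosomes. Kif22 was measured at 4.24, 8.41 and 2.49 FPKM across control replicates 1 to 3, against 2.32, 1.67 and 2.60 FPKM across SMA replicates 1 to 3, so that SMA replicate 3 lay above control replicate 3. Kif4 was at 1.496, 4.59 and 1.32 FPKM in controls and at 1.39, 1.14 and 1.13 FPKM in SMA, with SMA replicate 1 between control replicates 3 and 1. The log2 fold change of Kif22 was -0.81 (95% confidence interval -1.65 to 0.03), and -0.43 without control replicate 2 (-0.93 to 0.07). That of Kif4 was -0.52 (-1.34 to 0.29), and -0.12 without control replicate 2 (-0.45 to 0.22), and all 4 intervals hold 0.

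Kif2c and Kif18b shorten microtubules at centromeres and at the outer ends of the spindle. Kif2c was measured at 2.07, 4.10 and 1.38 FPKM across control replicates 1 to 3, against 1.42, 1.16 and 1.01 FPKM across SMA replicates 1 to 3. Kif18b was at 1.37, 2.96 and 0.898 FPKM in controls and at 0.957, 0.561 and 0.810 FPKM in SMA. In both, SMA replicate 1 lay just above control replicate 3, so the groups overlapped. The listed span of Kif18b is shared with several neighbours, among them the astrocyte gene Gfap.

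Kif15, which can take over part of the work of Kif11, was measured at 1.44, 3.13 and 0.981 FPKM across control replicates 1 to 3, against 1.11, 0.663 and 0.967 FPKM across SMA replicates 1 to 3. Control replicate 2 was again the highest library and SMA replicate 2 the lowest, with SMA replicate 1 above control replicate 3. Kifc1, a motor towards the minus end that gathers spindle poles, was at 2.17, 6.93 and 3.55 FPKM in controls and at 2.61, 2.81 and 3.48 FPKM in SMA. Outside control replicate 2 its 3 SMA values lay between those of control replicates 1 and 3, and the log2 fold change of -0.30 became 0.06 without that library.

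The remaining members act in cytokinesis, the last step of division. Kif23, part of the centralspindlin complex that marks the cleavage plane, was measured at 0.833, 2.63 and 0.757 FPKM across control replicates 1 to 3, against 0.898, 0.758 and 0.747 FPKM across SMA replicates 1 to 3. Kif20b, a midzone motor, was at 0.918, 2.13 and 0.695 FPKM in controls and at 0.885, 0.485 and 0.518 FPKM in SMA. Kif14, which holds citron kinase at the midbody, was at 0.790, 2.36 and 0.688 FPKM in controls and at 0.618, 0.414 and 0.520 FPKM in SMA. For Kif14 all SMA libraries were below all controls, while Kif20b and Kif23 overlapped between the groups. The log2 fold change of Kif23 was -0.34 with control replicate 2 and 0.00 without it (95% confidence interval -0.33 to 0.34).

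The ratio of control replicate 2 to the mean of control replicates 1 and 3 ran from 1.77 for Kif18a to 3.31 for Kif23 over the 12 mitotic kinesins, with a median of 2.59, where the median over all genes tested was 0.889. Summed over the class, mitotic kinesins were at 22.8, 52.7 and 18.6 FPKM across control replicates 1 to 3, against 16.8, 12.9 and 16.1 FPKM across SMA replicates 1 to 3. Among the 5 libraries other than control replicate 2, control replicate 1 was the highest for 10 of the 12 members (26.7% of all genes tested) and SMA replicate 2 the lowest for 8 (15.1% of all genes). The 3 SMA sums lay below both of the other control sums, with SMA at 73.8% of their mean.

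**Figure D3:**
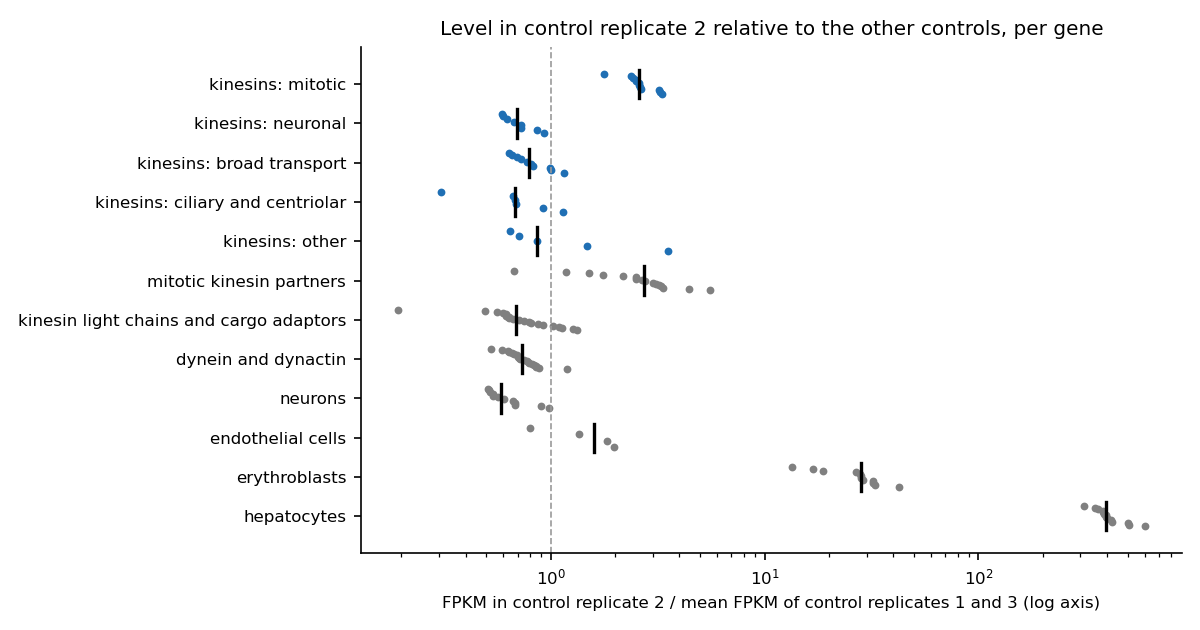
FPKM in control replicate 2 divided by the mean FPKM of control replicates 1 and 3 (log axis), with 1 point per gene and black lines for medians, for kinesin classes (blue) and for companion and marker lists (grey). The 12 mitotic kinesins lie from 1.77 to 3.31 and the 8 neuronal kinesins from 0.590 to 0.933.

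The summed FPKM of the 16 partners of mitotic kinesins was highest in control replicate 2 and lowest in SMA replicate 2, as that of the mitotic kinesins was. Of the partners, 15 had a negative log2 fold change (median -0.78) and 15 were highest in control replicate 2 (24.7% of all genes), and without that library all 16 were negative (median -0.33). At an unadjusted p under 0.05, Hmmr and Tpx2 were lower (2.39% of all genes), and without control replicate 2 Hmmr, Top2a and Mki67 (5.2% of all genes), named after their values were seen. Top2a, the topoisomerase of dividing cells, was measured at 8.29, 25.8 and 7.54 FPKM across control replicates 1 to 3, against 6.58, 4.43 and 5.83 FPKM across SMA replicates 1 to 3. Prc1, which bundles midzone microtubules and recruits Kif4, was at 7.69, 17.9 and 6.61 FPKM in controls and at 6.74, 3.54 and 6.15 FPKM in SMA. Top2a did not overlap between the groups, and Prc1 did, with SMA replicate 1 above control replicate 3. Racgap1, the partner of Kif23 in centralspindlin, was at 9.76, 11.8 and 10.3 FPKM in controls and at 10.2, 8.78 and 8.82 FPKM in SMA. Cit, the citron kinase bound by Kif14, was at 30.7, 23.6 and 39.0 FPKM in controls and at 30.8, 30.9 and 35.3 FPKM in SMA. Cit was the exception in control replicate 2, where it was lowest, and Racgap1 differed little between libraries. The sum of mitotic kinesins was 0.245, 0.292 and 0.201 of the partner sum in control replicates 1 to 3 and 0.203, 0.200 and 0.198 of it in SMA replicates 1 to 3. The partner sum itself was 93.0, 180 and 92.7 FPKM in controls and 82.5, 64.7 and 81.5 FPKM in SMA. Cit was a large part of that sum outside control replicate 2 and a smaller part within it. These ratios therefore depend on Cit and were not computed without it.

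Several markers of blood and vessels moved with the mitotic kinesins. All 12 erythroblast markers were highest in control replicate 2 and had negative log2 fold changes, and their sums were 21.9, 364 and 11.3 FPKM across control replicates 1 to 3, against 7.71, 11.8 and 10.8 FPKM across SMA replicates 1 to 3. Outside control replicate 2, 10 of the 12 were highest in control replicate 1, as 10 of the 12 mitotic kinesins were. The sums of the 4 endothelial markers were 43.7, 58.3 and 49.4 FPKM in controls and 36.3, 30.5 and 31.5 FPKM in SMA, with all 4 log2 fold changes negative with and without control replicate 2. Cldn5, a tight junction gene and the most abundant of them, was listed at 25.8, 20.4 and 24.96 FPKM in controls and at 16.4, 15.7 and 14.4 FPKM in SMA. Cldn5 was lowest among the controls in control replicate 2, unlike the other 3 endothelial markers and the mitotic kinesins, and was below all controls in SMA. Its unadjusted p was 0.0022 (limma adjusted p = 0.683). With control replicate 2 left out it was 0.0000339 (limma adjusted p = 0.108), and both were smaller than that of any kinesin. Of the endothelial markers Pecam1 was also lower at an unadjusted p under 0.05 from limma, with 0.0182 and, without control replicate 2, 0.0323. This made 2 of the 4 lower over all 6 libraries (2.39% of all genes) and 2 without control replicate 2 (5.2% of all genes). The erythroblast sum of SMA replicate 2 lay above that of control replicate 3, while endothelial sums did not overlap between the groups. Without control replicate 2 only 5 of the 12 erythroblast markers were abundant enough to be tested, with 4 negative log2 fold changes and Alas2 at 0.00. Neutrophil precursor sums were 12.7, 427 and 8.46 FPKM in controls and 6.04, 7.81 and 8.30 FPKM in SMA, so every SMA library lay below every control, as for the sums of mitotic kinesins. None of the 4 endothelial markers and none of the 12 erythroblast markers was at 0 in any library. Sums of glial markers overlapped between the groups, with 45.7 to 56.7 FPKM for microglia, 477 to 705 FPKM for astrocytes and 687 to 1229.7 FPKM for the oligodendrocyte lineage. Without control replicate 2, 8 of 9 oligodendrocyte lineage markers had negative log2 fold changes (median -0.17), with 2 lower at an unadjusted p under 0.05 (5.2% of all genes). Of 5 astrocyte markers, Aldoc was higher at that p over all 6 libraries (3.4% of all genes) and without control replicate 2 (5.27% of all genes). Aqp4 was lower at that p only without that library. No microglia marker was called in either fit. The part of erythroblasts, hepatocytes, neutrophil precursors and endothelial cells in the mitotic kinesin values was not tested.

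**Figure D4:**
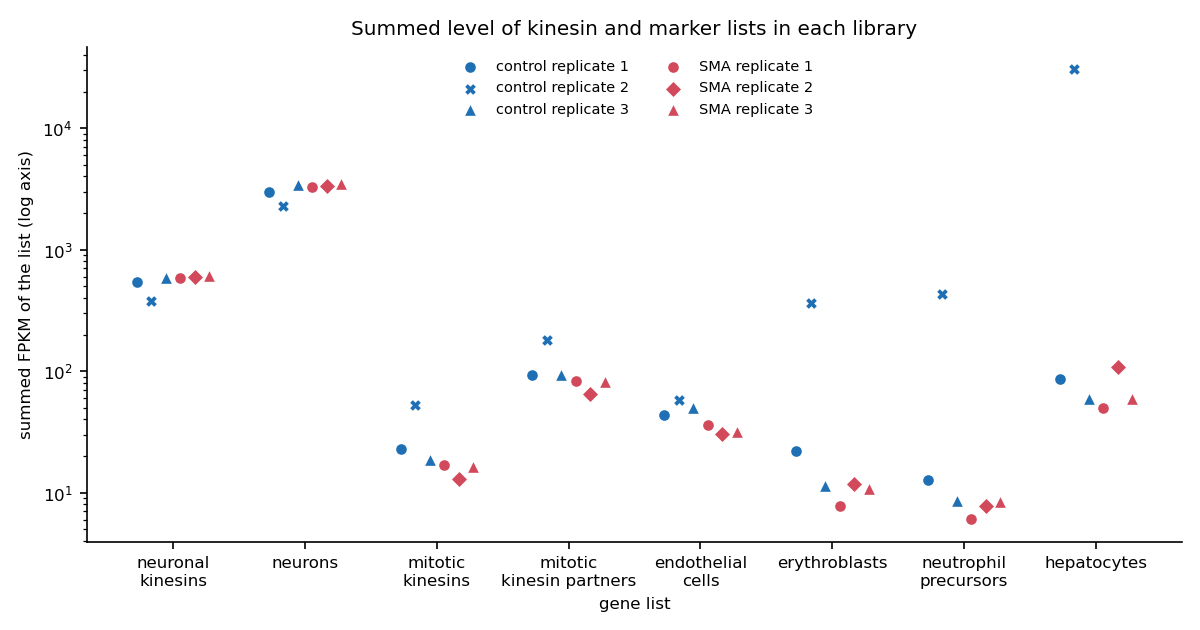
Summed FPKM (log axis) of kinesin classes, mitotic kinesin partners and cell type markers in each library, with blue symbols for control and red for SMA. Control replicate 2 (crosses) is highest for mitotic kinesins (52.7 FPKM), erythroblasts (364 FPKM), neutrophil precursors (427 FPKM) and hepatocytes (30368 FPKM), and lowest for neuronal kinesins (377 FPKM).

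Neuronal kinesins went the other way between libraries. All 8 had a positive log2 fold change, with a median of 0.26 (range 0.14 to 0.33) against 0.04 over all genes. At an unadjusted p under 0.05, 0 of them were called, where 3.4% of all genes were higher and 2.39% lower. Other settings called 3 of them higher. Kif17 was called with quantile normalization, as were 639 of 17088 genes, and without SMA replicate 2, as were 255 of 17117. Kif1a and Kifc2 were called without control replicate 3, as were 6.07% of all genes. All 8 had a ratio of control replicate 2 to the other controls below 1, with a median of 0.698, and 7 were lowest in that library, as were 44.9% of all genes tested. Without it the median was 0.08 against 0.00, with all 8 still above 0, although Kif3c and Kif5c turned to -0.04 and -0.02 when libraries were rescaled to the same total FPKM, and Kif5c to -0.01 with quantile normalization. The SMA libraries lay above all controls for 4 of the 8 (Kif1a, Kif5a, Kif21a and Kif17), against 10.3% of all genes, and for the same 4 without control replicate 2, against 14.2%. For Kif5a this rests on 95.107 FPKM in SMA replicate 1 against 95.102 FPKM in control replicate 3. For Kif21a it rests on 20.92 FPKM in SMA replicate 2 against 20.88 FPKM in control replicate 3.

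Kif1a, a kinesin-3 motor for synaptic vesicle precursors and dense core vesicles, lies on chromosome 1 from 93015464 to 93101951. It was measured at 183, 141 and 206 FPKM across control replicates 1 to 3, against 211, 216 and 219 FPKM across SMA replicates 1 to 3. The SMA values were close to each other and just above control replicate 3. The log2 fold change was 0.30 (standard error 0.158, unadjusted p = 0.0997, adjusted p = 0.683 from limma) and 0.15 without control replicate 2 (standard error 0.0673, unadjusted p = 0.0608, adjusted p = 0.495 from limma). The exact two-sided permutation test gave p = 0.1 both times, the smallest possible.

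Kif5a and Kif5c are heavy chains of kinesin-1, the main motor of fast axonal transport, and Kif5a is the form mutated in hereditary motor neuron and axon disease. Kif5a was measured at 91.7, 55.8 and 95.1 FPKM across control replicates 1 to 3, against 95.1, 99.6 and 102 FPKM across SMA replicates 1 to 3. Kif5c was at 119, 73.1 and 115 FPKM in controls and at 115, 124 and 119 FPKM in SMA. Only control replicate 2 stood apart in both genes, and SMA replicate 1 was level with control replicate 3. The log2 fold changes were 0.32 for Kif5a and 0.25 for Kif5c, and leaving out control replicate 2 gave 0.08 for Kif5a (95% confidence interval -0.05 to 0.21) and 0.03 for Kif5c (-0.10 to 0.16).

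Kif21a and Kif21b are kinesin-4 motors that hold back microtubule growth in axons and dendrites. Kif21b was measured at 47.0, 33.2 and 51.7 FPKM across control replicates 1 to 3, against 53.0, 49.9 and 53.7 FPKM across SMA replicates 1 to 3. Kif21a was at 19.7, 17.5 and 20.9 FPKM in controls and at 21.7, 20.9 and 21.6 FPKM in SMA. Relative to its level the spread of Kif21a was the narrowest of the class, and its SMA replicate 2 was above control replicate 3 only in the second decimal. Kif3c, a kinesin-2 subunit that pairs with Kif3a in neurons, was at 38.0, 23.0 and 39.9 FPKM in controls and at 38.2, 39.7 and 40.1 FPKM in SMA. Kifc2, a motor towards the minus end found mainly in neurons, was at 39.2, 32.0 and 48.8 FPKM in controls and at 44.3, 47.1 and 45.9 FPKM in SMA. In Kifc2 all SMA values lay between those of control replicates 1 and 3, and in Kif3c the groups overlapped as well.

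Kif17, a kinesin-2 motor that carries NMDA receptor subunits into dendrites, had the largest log2 fold change of the class and the lowest level. It was measured at 1.73, 1.77 and 2.07 FPKM across control replicates 1 to 3, against 2.87, 2.12 and 2.85 FPKM across SMA replicates 1 to 3. All SMA libraries were above all controls, SMA replicate 2 only narrowly, and control replicate 2 was level with control replicate 1. Its log2 fold change was 0.33 (standard error 0.144, unadjusted p = 0.0563, adjusted p = 0.683 from limma) and 0.31 without control replicate 2 (standard error 0.156, unadjusted p = 0.0824, adjusted p = 0.538 from limma).

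Most neuron markers moved with the neuronal kinesins between libraries. Meg3 and 1 more of the 12 markers did not follow the drop in control replicate 2 and were lowest in control replicate 1, and as abundant genes they weigh heavily in the marker sums. The sum of neuronal kinesins was 539, 377 and 580.2 FPKM across control replicates 1 to 3, against 582, 599 and 603 FPKM across SMA replicates 1 to 3. Divided by the sum of the 12 neuron markers this was 0.180, 0.164 and 0.170 in controls and 0.178, 0.178 and 0.174 in SMA, a range that overlapped. Of the neuron markers, 12 had a positive log2 fold change (median 0.28), and 9 had one without control replicate 2 (median 0.07). The part of the neuron content of the libraries in the neuronal kinesin values was not tested.

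**Figure D5:**
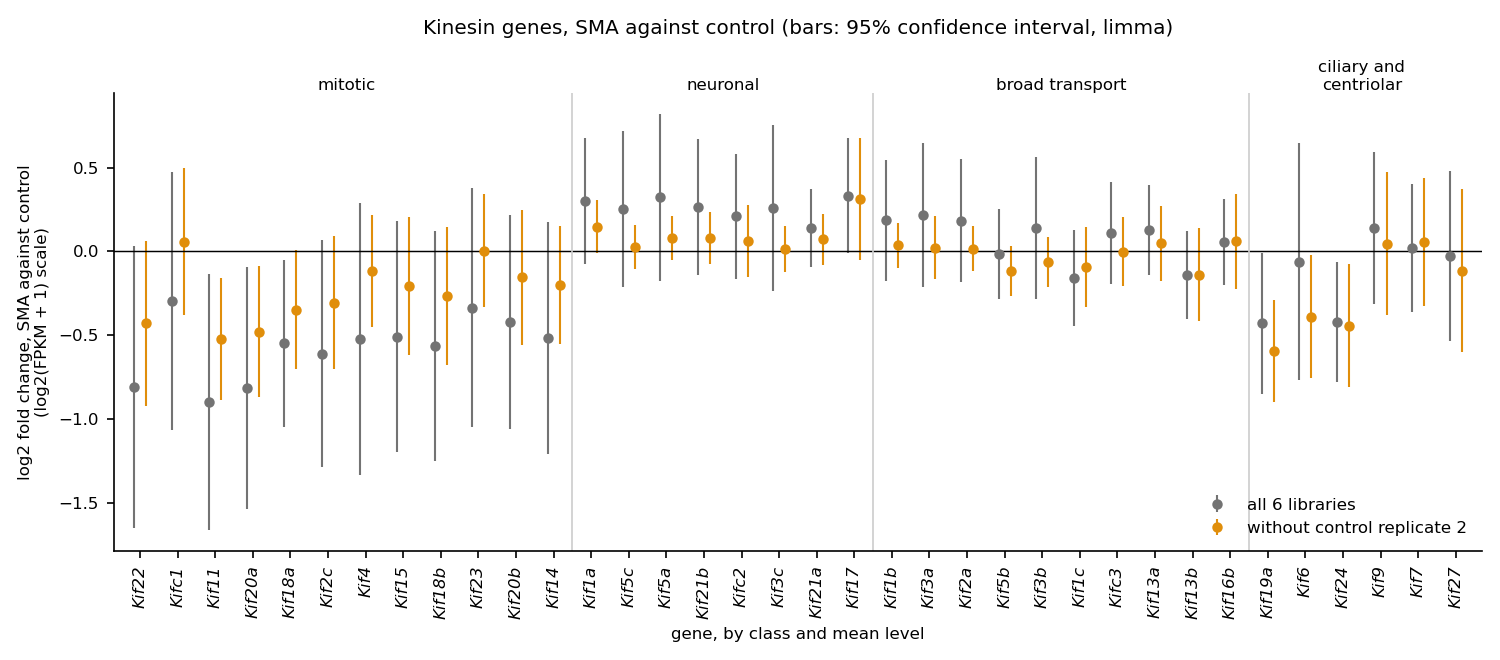
Log2 fold change of SMA against control with its 95% confidence interval from limma for the tested kinesins of the 4 named classes, over all 6 libraries (grey) and without control replicate 2 (orange). Without that library the median of mitotic kinesins moves from -0.54 to -0.24 and that of neuronal kinesins from 0.26 to 0.08.

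Kinesin light chains and cargo adaptors, which tie the motors to their loads, were measured alongside. Of 22 genes 21 were tested, all but Klc3, with a median log2 fold change of 0.15. At an unadjusted p under 0.05, 0 were called, where 2.39% of all genes were lower and 3.4% higher. Klc1, the main light chain of kinesin-1, was measured at 137, 85.3 and 130.5 FPKM across control replicates 1 to 3, against 144, 143 and 149 FPKM across SMA replicates 1 to 3. The scaffold gene Mapk8ip1 was at 101, 62.3 and 95.8 FPKM in controls and at 97.8, 103 and 101 FPKM in SMA. Klc1 was above all controls in every SMA library, and Mapk8ip1 overlapped. Fez1, a kinesin-1 adaptor, was at 95.1, 56.9 and 89.1 FPKM in controls and at 87.1, 87.8 and 86.7 FPKM in SMA. Arl8a, which links kinesins to lysosomes, was at 75.7, 48.6 and 76.0 FPKM in controls and at 72.3, 69.9 and 75.1 FPKM in SMA. For Fez1 and Arl8a the SMA libraries lay below control replicates 1 and 3 and above control replicate 2. Without that library the median of the list was 0.00, with Arl8b, Klc2 and Trak2 lower (5.2% of all genes) and Ppfia3 higher (5.27% of all genes) at an unadjusted p under 0.05, named after their values were seen.

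Dynein and dynactin, the machinery of retrograde transport, resembled the neuronal kinesins in control replicate 2, where 19 of 20 genes were lowest, against 44.9% of all genes. Their median log2 fold change was 0.18 and, without that library, 0.02. Pafah1b1, the dynein regulator LIS1, was measured at 134, 83.4 and 119.8 FPKM across control replicates 1 to 3, against 122, 128 and 130.5 FPKM across SMA replicates 1 to 3. Dync1h1, the dynein heavy chain, was at 98.9, 73.6 and 106 FPKM in controls and at 108, 101 and 106 FPKM in SMA. Both overlapped between the groups. The light chain gene Dynll2 was at 109, 63.1 and 90.2 FPKM in controls and at 89.1, 99.97 and 106 FPKM in SMA, and Dctn1, the large dynactin subunit, was at 79.1, 65.5 and 78.3 FPKM in controls and at 88.4, 81.6 and 88.2 FPKM in SMA. Dctn1 was above all controls in every SMA library. At an unadjusted p under 0.05 only Nde1 was lower (2.39% of all genes), and without control replicate 2 Nde1 and Dctn4 (5.2% of all genes), named after their values were seen. Nde1, which also serves mitotic dynein, was highest in control replicate 2.

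Broad transport kinesins, which are used in neurons and in other cells, showed little difference between SMA and control. Their median log2 fold change was 0.12 with 7 of 10 above 0, and 0.01 with 5 of 10 above 0 without control replicate 2. Kif1b, a carrier of mitochondria and synaptic vesicle precursors, was measured at 157, 118 and 168 FPKM across control replicates 1 to 3, against 169.7, 164 and 165 FPKM across SMA replicates 1 to 3. Kif3a, a kinesin-2 subunit used in cilia and axons, was at 49.6, 29.96 and 41.5 FPKM in controls and at 47.2, 45.5 and 45.8 FPKM in SMA. Kif2a, which trims microtubules at growing axon branches and spindle poles, was at 37.7, 26.9 and 39.6 FPKM in controls and at 39.5, 39.3 and 38.4 FPKM in SMA. In all 3 genes control replicate 2 was the lowest library and the groups overlapped, and SMA replicate 1 was the highest library for Kif1b. The other 7 (Kif5b, Kif3b, Kif1c, Kifc3, Kif13a, Kif13b and Kif16b) ranged from 2.87 to 31.6 FPKM, with log2 fold changes from -0.16 to 0.14, and from -0.14 to 0.06 without control replicate 2. Kif5b, the kinesin-1 heavy chain of most tissues, had a log2 fold change of -0.02, and of -0.11 without control replicate 2.

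Among ciliary and centriolar kinesins, Kif24 had the smallest unadjusted p of the family over all 6 libraries and Kif19a the smallest without control replicate 2. The class had a median log2 fold change of -0.04, and of -0.25 without control replicate 2, with 4 of 6 below 0 both times. Kif19a, which shortens microtubules at the tips of motile cilia, lies on chromosome 11 from 114765388 to 114790739. It was measured at 6.32, 4.597 and 7.53 FPKM across control replicates 1 to 3, against 4.81, 3.86 and 4.07 FPKM across SMA replicates 1 to 3. Control replicate 2 lay among the SMA libraries, and control replicates 1 and 3 lay above all of them. The log2 fold change was -0.43 (unadjusted p = 0.0472, adjusted p = 0.683 from limma) and -0.59 without control replicate 2 (standard error 0.131, unadjusted p = 0.00224, adjusted p = 0.291 from limma). Over all 6 libraries Kif19a had the largest p of the 6 lower kinesins, and its unadjusted p was 0.103 at the same total FPKM and 0.149 with quantile normalization. Its log2 fold change was -0.40 without control replicate 1 (unadjusted p = 0.112 from limma) and -0.29 without control replicate 3 (unadjusted p = 0.138 from limma). Its difference was larger without control replicate 2, the reverse of the mitotic kinesins.

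Kif24, which keeps cilia from forming by acting at the mother centriole, was measured at 2.39, 1.89 and 1.69 FPKM across control replicates 1 to 3, against 1.29, 1.10 and 1.27 FPKM across SMA replicates 1 to 3. It is on chromosome 4 from 41390745 to 41464887. All SMA libraries were below all controls, and control replicate 2 lay between the other controls, so its log2 fold change was much the same with that library (-0.42, unadjusted p = 0.0269, adjusted p = 0.683 from limma) and without it (-0.44, unadjusted p = 0.0243, adjusted p = 0.422 from limma). Over all 6 libraries its unadjusted p from limma was 0.11 with quantile normalization and 0.0614 with replicate numbers as a block. Without control replicate 1 its log2 fold change was -0.33 (unadjusted p = 0.072 from limma). Kif6, a kinesin of ependymal cilia, was at 3.09, 0.804 and 2.14 FPKM in controls and at 1.65, 1.71 and 1.84 FPKM in SMA. Control replicate 2 was the lowest library for Kif6 and the other controls the highest, and its log2 fold change was -0.06 with control replicate 2 and -0.39 without it (unadjusted p = 0.0400, adjusted p = 0.451 from limma). Kif9, Kif7 and Kif27 lay between 0.849 and 1.93 FPKM, with log2 fold changes from -0.03 to 0.14, and from -0.11 to 0.06 without control replicate 2.

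The sums of the 5 ependymal markers, the ciliated cells of the central canal, were 12.1, 108 and 9.56 FPKM across control replicates 1 to 3, against 11.6, 11.5 and 10.8 FPKM across SMA replicates 1 to 3. Rarres2, also known from liver and the most abundant of them only through control replicate 2, was at 101 FPKM in control replicate 2 and at no more than 3.23 FPKM elsewhere, and Ccdc153 was at 0 in control replicates 2 and 3. Outside control replicate 2 the ependymal sums of SMA lay between those of control replicates 1 and 3. Kif19a, Kif6 and Kif24 lay below both of those controls in all SMA libraries (13.9% of all genes), and Kif9, Kif7 and Kif27 overlapped. The part of ependymal cells in these kinesin values was not tested.

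Of the others, Kif26b and Kif26a are kinesin-like proteins without motor activity of the usual kind. Kif26b was measured at 29.2, 20.5 and 34.2 FPKM across control replicates 1 to 3, against 34.4, 31.0 and 35.8 FPKM across SMA replicates 1 to 3. Kif1bp was at 30.1, 21.04 and 29.1 FPKM in controls and at 29.7, 31.4 and 30.3 FPKM in SMA, and Kif26a was at 4.07, 3.42 and 3.82 FPKM in controls and at 3.63, 3.39 and 3.72 FPKM in SMA. Kif26b and Kif1bp were lowest in control replicate 2, and Kif26a differed little. The log2 fold changes were 0.29 for Kif26b, 0.20 for Kif1bp and -0.06 for Kif26a. Without control replicate 2 they were 0.09, 0.04 and -0.11. Kifc5b, named because of its p, was highest in control replicate 2 like the mitotic kinesins, with 1.71, 2.66 and 1.87 FPKM in controls and 1.36, 0.862 and 1.47 FPKM in SMA. Its log2 fold change was -0.46 (unadjusted p = 0.0446, adjusted p = 0.683 from limma) and -0.33 without control replicate 2 (unadjusted p = 0.0870, adjusted p = 0.544 from limma). Kif12 ranged from 0.0407 to 0.399 FPKM and was not tested.

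Set against each other, the summed FPKM of neuronal kinesins was 23.6, 7.16 and 31.2 times that of mitotic kinesins in control replicates 1 to 3 and 34.7, 46.3 and 37.4 times in SMA replicates 1 to 3. Mitotic kinesins made up 2.33%, 7.07% and 1.80% of the summed kinesin FPKM in controls and 1.63%, 1.26% and 1.55% in SMA. Every SMA library thus had a smaller mitotic share than every control. The difference between control replicates 1 and 3 (2.33% and 1.80%) was larger than that between control replicate 3 and SMA replicate 1 (1.80% and 1.63%), and control replicate 2 was far above all others. The whole family made up 0.272%, 0.180% and 0.298% of the summed FPKM of controls and between 0.281% and 0.283% of that of SMA.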

How the data were processed

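FPKM values were used as deposited by the authors. According to the submitters' processing notes, reads were aligned to mm10 with HISAT2 and levels came from Cufflinks, with versions not given in the sources used here. Genes not listed in a library count as 0 there. Kinesins were found by name, without pseudogenes and opposite-strand transcripts, and sorted into classes by textbook function. Members and lists were chosen with earlier results of these data known. Companion lists were mitotic kinesin partners, light chains and cargo adaptors, and dynein and dynactin, and marker lists were those of neurons, oligodendrocyte lineage, astrocytes, ependymal cells, microglia, endothelial cells, hepatocytes, erythroblasts and neutrophil precursors. Values in every library are given for mitotic and neuronal kinesins and for the genes of highest mean, 3 of each other class and at most 4 of each companion list, with the most abundant gene and genes at 0 of marker lists, and some further genes are named for their p. SMA and control were compared with limma on log2(FPKM + 1) for genes averaging 0.5 FPKM or more, with p adjusted over all genes tested by Benjamini and Hochberg, and thresholds of 0.05 for p and 2 for fold. The exact permutation test ran over all assignments of libraries to groups. The code was tested on simulated data. Protein features were not run, because no protein table was at hand. Tools were R 4.3.3, limma 3.58.1, Python 3.11.15, NumPy 2.4.6 and pandas 2.3.3.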

Additional observations from a re-analysis of the deposited data

How the results depend on the processing

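The median log2 fold change of mitotic kinesins was -0.54, went from -0.74 to -0.24 when any 1 library was left out (control replicates 3 and 2), and was -0.13 without control replicates 1 and 2. It was -0.85 with a pseudocount of 0.1, -0.30 with array weights and -0.47 without control replicate 2 with a pseudocount of 0.1. That of neuronal kinesins was 0.26, went from 0.08 to 0.39, was 0.10 with array weights, and was 0.04 without control replicates 1 and 2 and 0.02 without control replicate 2 at the same total FPKM. At an unadjusted p under 0.05, 6 kinesins were lower in SMA, 3 with quantile normalization and 0 to 8 when 1 library was left out. Without control replicate 2 and 1 SMA library, 4 were lower without SMA replicate 1, 2 without SMA replicate 2 and 3 without SMA replicate 3. Leaving out a further control left 1 control library, so counts at a p are not given for that choice. The count of higher kinesins was 0, 1 with quantile normalization and 0 to 3 when 1 library was left out, and 1 without control replicate 2 and SMA replicate 2. Of the mitotic kinesins 3 were lower, 5 at the same total FPKM and 0 to 7 when 1 library was left out, and 1 without control replicate 2 and SMA replicate 2. Replicate numbers did not pair the libraries, and with them as a block 3 kinesins and 2 mitotic kinesins were lower, with 303 of all genes lower and 356 higher. Of all genes 409 were lower, 619 with array weights and 125 to 862 when 1 library was left out, and, without control replicate 2, 897 with median ratio scaling, 867 with quantile normalization, 1462 at the same total FPKM and 843 with a pseudocount of 0.1. The higher genes were 581, 882 without a filter, 338 at the same total FPKM and 214 to 1040 when 1 library was left out, and, without control replicate 2, 876 with quantile normalization and 877 with a pseudocount of 0.1. The log2 fold change of Kif23 went from -0.52 to 0.00 when 1 library was left out, and without control replicate 2 it was 0.00 with median ratio scaling and 0.01 with a pseudocount of 0.1. That of Kifc1 went from -0.60 to 0.06, was 0.01 with array weights, and without control replicate 2 was 0.05 with median ratio scaling, 0.07 with quantile normalization, 0.02 at the same total FPKM and 0.08 with a pseudocount of 0.1. Without control replicate 2, Kif3c was at -0.04 and Kif5c at -0.02 at the same total FPKM, and Kif5c at -0.01 with quantile normalization. Without Kif1a the mitotic share of control replicate 2 was 8.72% instead of 7.07%. Choices without control replicate 2 combined with scaling, pseudocount or a further library, and the promoter window of 50 bases, were added after the data were seen. Protein features were not run, and the cause was not tested.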
